A study of Mus musculus with 12 samples.

Results

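The 10 genes described here mark T cells and natural killer (NK) cells: the CD3 chains Cd3d, Cd3e and Cd3g, the coreceptors Cd4, Cd8a and Cd8b1, the cytotoxic granule genes Gzma, Gzmb and Nkg7, and the regulatory T cell factor Foxp3. They were taken by name out of 23301 gene names found in all 12 expression tables. For 9 genes the tables had a row of their own, and Foxp3 was found only in a row that joined it with Ppp1r3fos. Cd8b1 and Gzma were chosen by the size of their change in these same FPKM values, so they are given by their values with no test, and the other 8 genes were tested.

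Mammary tissue of 12-week-old female mice was measured by RNA sequencing of poly(A) RNA in 4 groups with 3 replicates each. Normal samples were mammary glands of untreated FVB wild type mice, and a replicate was a pool of abdominal and inguinal glands from 3 mice. Tumor samples were untreated MMTV-PyVT tumors of the thoracic glands, with 1 mouse per replicate. In MMTV-PyVT mice the mouse mammary tumor virus promoter drives the polyoma virus middle T antigen in the mammary epithelium, and these females were heterozygous for it. The DMSO and C646 samples were tumors of injected MMTV-PyVT mice. DMSO is the solvent and C646 inhibits the histone acetyltransferase p300, and the labels give 1 mg/kg for both injections. The first question was how these genes differed between normal gland and tumor, and the second was how they differed between C646 and DMSO tumors. Between Normal and Tumor the tissue, the genotype, the position of the gland and the pooling of mice all changed at once. Their parts cannot be told apart.

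T cells recognise peptides with a T cell receptor whose signal passes through the CD3 chains. CD4 and CD8 bind the presenting major histocompatibility molecules and divide T cells broadly into helper and cytotoxic cells, and CD8 is a dimer of the products of Cd8a and Cd8b1 on most cytotoxic T cells. Cytotoxic T cells and NK cells kill with granules that carry granzymes such as those encoded by Gzma and Gzmb, and Nkg7 encodes a granule membrane protein. Foxp3 is the transcription factor that defines regulatory T cells. Normal mammary fat pads hold lymph nodes, which are dense in T and B cells, while tumors can be infiltrated by both.

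In GRCm38, which is mm10, the CD3 genes lay together on chromosome 9. Cd3g (chr9:44969572-44980431, minus strand) and Cd3d (chr9:44981786-44987339, plus strand) ran in opposite directions with 1354 bases between them. Cd3e (chr9:44998740-45009627, minus strand) lay 11400 bases beyond Cd3d and overlapped the annotated genes Gm48719 and Gm48720. Cd8b1 (chr6:71322788-71337494) and Cd8a (chr6:71373427-71379173) followed each other on the plus strand with 35932 bases between them. Cd4 was on the same chromosome (chr6:124864692-124888221, minus strand), far from both. The granule genes were on 3 chromosomes, Nkg7 at chr7:43437073-43438249 on the plus strand, Gzma at chr13:113093825-113100981 on the minus strand and Gzmb at chr14:56258838-56262260 on the minus strand. Foxp3 (chrX:7573644-7595245, plus strand) overlapped Ppp1r3f, Gm36995, Flicr and Ccdc22. The libraries did not keep strand, so reads of overlapping and antisense genes could not be told apart, and the Foxp3 value is a joint one.

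The 250 bases before the RefSeq start site (GRCm38.p6) are shown for the 3 CD3 genes, which share a locus and differed together, and for the granzymes Gzma and Gzmb, which did not. They are written 5′ to 3′ along the gene. Capitals mark matches on either strand to the letters searched. For RUNX factors these were TGTGGT. For ETS factors they were AGGAAG. For the TATA box they were TATAAA. For GATA factors they were AGATAA. No window shown held matches to more than 1 of these motifs. The windows are chr9:44980432-44980681 (minus) for Cd3g, chr9:44981536-44981785 (plus) for Cd3d, chr9:45009612-45009861 (minus) for Cd3e, chr13:113100982-113101231 (minus) for Gzma and chr14:56262335-56262584 (minus) for Gzmb.
Cd3g: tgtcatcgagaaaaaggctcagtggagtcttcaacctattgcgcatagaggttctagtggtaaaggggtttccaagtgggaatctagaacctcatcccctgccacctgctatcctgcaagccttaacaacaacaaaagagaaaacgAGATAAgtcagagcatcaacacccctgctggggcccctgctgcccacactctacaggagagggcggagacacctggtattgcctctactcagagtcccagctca
Cd3d: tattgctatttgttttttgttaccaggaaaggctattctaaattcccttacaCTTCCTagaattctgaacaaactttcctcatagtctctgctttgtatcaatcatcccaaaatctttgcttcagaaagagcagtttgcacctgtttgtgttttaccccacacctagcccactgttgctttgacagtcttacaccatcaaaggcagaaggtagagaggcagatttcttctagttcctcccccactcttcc
Cd3e: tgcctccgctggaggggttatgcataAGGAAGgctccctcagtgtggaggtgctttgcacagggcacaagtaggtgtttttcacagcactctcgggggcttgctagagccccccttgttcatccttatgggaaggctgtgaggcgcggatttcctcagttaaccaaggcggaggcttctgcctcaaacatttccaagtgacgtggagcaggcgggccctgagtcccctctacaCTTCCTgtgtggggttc
Gzma: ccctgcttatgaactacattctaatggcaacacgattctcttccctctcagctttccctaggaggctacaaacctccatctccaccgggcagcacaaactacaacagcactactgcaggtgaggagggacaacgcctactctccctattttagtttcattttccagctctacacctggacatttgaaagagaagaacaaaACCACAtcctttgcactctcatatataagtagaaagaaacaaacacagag
Gzmb: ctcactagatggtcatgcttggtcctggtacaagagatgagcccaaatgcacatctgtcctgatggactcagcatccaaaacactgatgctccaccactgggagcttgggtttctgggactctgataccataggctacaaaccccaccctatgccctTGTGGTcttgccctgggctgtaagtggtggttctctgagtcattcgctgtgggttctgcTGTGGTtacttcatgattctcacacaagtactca

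Cd3d held 1 ETS match, Cd3e held 2 and Cd3g held none but 1 GATA match. Gzma held 1 RUNX match and Gzmb held 2. Over 32851 RefSeq promoters of the same length, 14% held the RUNX letters, 29.5% the ETS letters, 12.4% the TATA letters and 9.99% the GATA letters. The matches describe letters only.

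Values were FPKM, fragments scaled to transcript length and to all mapped fragments, so levels of different genes can be set side by side. The tables do not give total reads. From the steps between low values, Tumor replicate 3 was 1.53 times as deep as Tumor replicate 1, and the other injected tumors were 0.927 to 1.29 times as deep as DMSO replicate 1. Gapdh, which all cells use, was at or near 0 in the Normal and Tumor tables, so a 0 was taken only as listed at 0. The Normal and Tumor tables had 26220 rows and the DMSO and C646 tables had 24304, and each experiment was tested on its own. Among epithelial markers 7 of 8 were called higher in Tumor than in Normal, against 28.8% of all genes tested. The summed level of the list was 479 to 1010 FPKM in Normal and 3210 to 4420 FPKM in Tumor.

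In Normal all 30 values of the 10 genes were above 0, from 1.25 to 106 FPKM. In Tumor the 30 values ran from 0 to 1.57 FPKM, with 3 listed at 0. The order of the medians in Normal was Cd3g, Cd3e, Cd3d, Cd4, Cd8b1, Nkg7, Cd8a, Gzma, Foxp3 and Gzmb. Neighbours in this order overlapped in their ranges, except that Cd3g lay above Cd3e, Cd8a above Gzma and Foxp3 above Gzmb in every sample. In Tumor the order began with Gzmb, the lowest in Normal, followed by Cd3g and Cd4, and the ranges of these 3 genes overlapped. Normal replicate 2 was the highest Normal sample for 9 of the 10 genes, and Tumor replicate 2 the lowest Tumor sample for 8. The summed level of the 10 genes was 270, 376 and 274 FPKM in Normal and 5.3, 1.74 and 3.71 FPKM in Tumor.

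**Figure D1:**
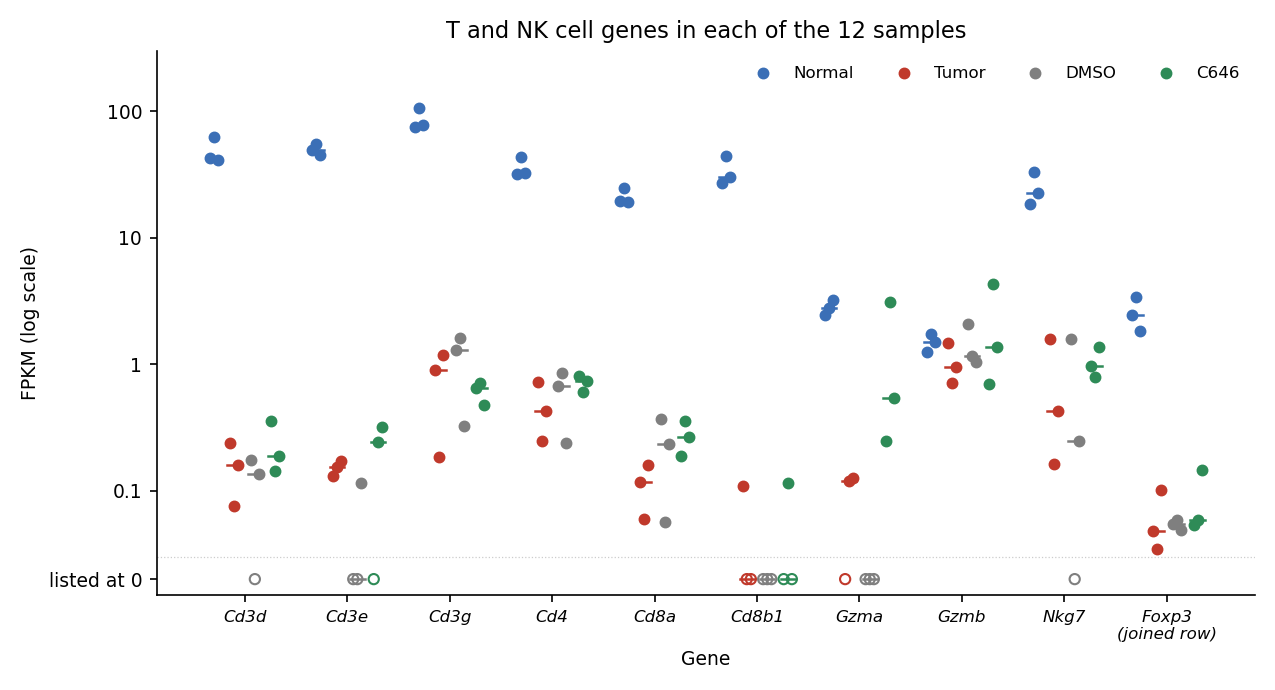
FPKM on a log axis of the 10 T and NK cell genes in the 3 samples of each group. Each point is a sample, open points are listed at 0 and bars are group medians. Normal samples lie above every Tumor sample for all genes but Gzmb, and the injected tumors lie between 0 and 4.33 FPKM.

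Of the 8 tested genes, 7 were lower in Tumor than in Normal and none was higher, by limma with Benjamini-Hochberg adjustment over 13031 genes. Over all of these genes 31.7% were called lower and 28.8% higher. All 10 genes passed the filter on low values (1 FPKM or more, reached by 3 or more of the 6 samples). In 7 of them only the Normal samples reached 1 FPKM, so passing already set their groups apart, and the count is a description. Cd3g, Gzmb and Nkg7 also reached 1 FPKM in 1 Tumor sample each. Without Normal replicate 1, 2 or 3, only 2 of the 7 genes, Cd3g and Nkg7, were called, because the others then failed the filter, and with the genes of the 6-sample filter all 7 were called. With all 18720 genes above 0 in some sample tested, the 7 genes were called lower again, beside 26% of all genes lower and 21.3% higher. In 9 of the 10 genes every Tumor sample was below every Normal sample, as in 31.1% of all gene names above 0 in some sample, and 25.8% were the other way round. Fewer T cells and less RNA per T cell cannot be told apart in bulk tissue.

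Cd3e, which encodes the CD3 chain found in each CD3 dimer, was at 48.9, 55.1 and 45.1 FPKM in Normal and at 0.13, 0.153 and 0.17 FPKM in Tumor. The groups were far apart, and the spread within each was small. The gene fell by 8.09 on the log2 scale (without the filter, limma adjusted p = 6.7e-06). Cd3d, which pairs with Cd3e in the complex, was at 42.7, 62.5 and 41.1 FPKM in Normal and at 0.239, 0.0763 and 0.158 FPKM in Tumor. It fell by 8.08 on the log2 scale (without the filter, limma adjusted p = 1.95e-05). For both genes the lowest Normal sample was over 100 times the highest Tumor sample, with ratios of 172 for Cd3d and 265 for Cd3e.

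Cd3g was the most abundant of the 10 genes in Normal, at 75, 106 and 77.3 FPKM. In Tumor it was at 0.896, 0.183 and 1.18 FPKM, well above the other CD3 chains in replicates 1 and 3. It fell by 7.09 on the log2 scale (SE 0.604, limma adjusted p = 9.28e-05), and its lowest Normal sample was 63.5 times its highest Tumor sample. The sum of the 3 CD3 chains was 164 to 223 FPKM in Normal and 0.412 to 1.51 FPKM in Tumor.

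The coreceptor of helper T cells, Cd4, was at 31.8, 43.4 and 32.5 FPKM in Normal and at 0.722, 0.248 and 0.428 FPKM in Tumor. All Tumor samples were below all Normal samples, and the gene fell by 6.28 on the log2 scale (without the filter, limma adjusted p = 3.58e-05). Cd8a, which encodes the alpha chain of CD8, was at 19.5, 24.6 and 19 FPKM in Normal and at 0.118, 0.0598 and 0.16 FPKM in Tumor. It fell by 7.25 on the log2 scale (without the filter, limma adjusted p = 2.13e-05). Cd8b1, the beta chain gene chosen for its change, was at 27.2, 44.1 and 30.1 FPKM in Normal, above Cd8a in every sample. In Tumor it was at 0.109 FPKM in replicate 1 and listed at 0 in replicates 2 and 3.

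The granule genes differed from one another. Nkg7 was at 18.6, 33 and 22.6 FPKM in Normal and at 1.57, 0.163 and 0.427 FPKM in Tumor, where replicate 1 stood above the others. It fell by 5.52 on the log2 scale (SE 0.701, limma adjusted p = 0.000497). Gzma, chosen for its change, was at 2.45, 2.76 and 3.24 FPKM in Normal. In Tumor it was listed at 0 in replicate 1 and at 0.119 and 0.127 FPKM in replicates 2 and 3. All of its Tumor samples lay below all of its Normal samples.

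Gzmb was the only one of the 10 genes whose Normal and Tumor samples overlapped. It was at 1.25, 1.72 and 1.5 FPKM in Normal and at 1.46, 0.705 and 0.956 FPKM in Tumor, so that Tumor replicate 1 lay inside the Normal range. The log2 fold change was -0.56 (95% interval -1.36 to 0.24, limma adjusted p = 0.194), and it was 0.15 with quantile normalization. The interval spanned 0, while the intervals of the 7 called genes all ended at -3.69 or lower. Of those, Cd3d, Cd3e, Cd4, Cd8a and the joined Foxp3 row reached 1 FPKM in Normal samples only. The filter had already set their groups apart, so their intervals are descriptions.

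The joined row of Foxp3 and Ppp1r3fos was at 2.43, 3.41 and 1.83 FPKM in Normal and at 0.0478, 0.0344 and 0.102 FPKM in Tumor. The samples did not overlap, and the row fell by 4.83 on the log2 scale (without the filter, limma adjusted p = 0.0001745). The share of each gene in this row was not tested.

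Ratios between genes of the same sample do not depend on how the sample was scaled, and 8 were compared. With 3 against 3 samples the smallest p of the exact two-sided permutation test is 0.1, so none could pass 0.05. In 6 ratios the groups did not overlap (exact p = 0.1, adjusted over the 8 ratios 0.133). Tumor levels of many of these genes were under 1 FPKM, where few reads set each ratio.

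Cd8a over Cd4 was 0.611, 0.566 and 0.584 in Normal and 0.163, 0.241 and 0.373 in Tumor. It was 2.4 times lower in Tumor, with no overlap (exact permutation p = 0.1). Cd4 over Cd3e was 0.652, 0.787 and 0.72 in Normal and 5.57, 1.63 and 2.52 in Tumor, a 3.95-fold difference (exact permutation p = 0.1). Cd8a over Cd3e overlapped, at 0.398 to 0.446 in Normal and 0.391 to 0.939 in Tumor (exact permutation p = 0.4, adjusted 0.4).

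Gzmb over Cd8a showed the widest gap of the 8 ratios. It was 0.0645, 0.0698 and 0.0792 in Normal and 12.4, 11.8 and 5.99 in Tumor, a 135-fold difference with no overlap (exact permutation p = 0.1). Nkg7 over Cd3e was 0.38, 0.598 and 0.5 in Normal and 12.1, 1.07 and 2.51 in Tumor, 6.58-fold apart (exact permutation p = 0.1). The 3 Tumor samples spread over more than 10-fold in this ratio, with replicate 1 far above the others. The joined Foxp3 row over Cd4 overlapped, at 0.0562 to 0.0785 in Normal and 0.0662 to 0.238 in Tumor (exact permutation p = 0.3, adjusted 0.343).

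The remaining ratios set Cd3e against genes of other immune cells. Against Ptprc, the leukocyte marker CD45, it was 0.869, 0.87 and 0.716 in Normal and 0.0961, 0.091 and 0.114 in Tumor. The Tumor ratios were 8.15 times lower (exact permutation p = 0.1), so that Cd3e was lower in Tumor by more than the marker of all leukocytes. Against Cd79a, a signal chain of the B cell receptor, it was 0.592, 0.492 and 0.519 in Normal and 1.27, 0.863 and 1.27 in Tumor. This ratio was 2.09 times higher in Tumor (exact permutation p = 0.1).

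**Figure D2:**
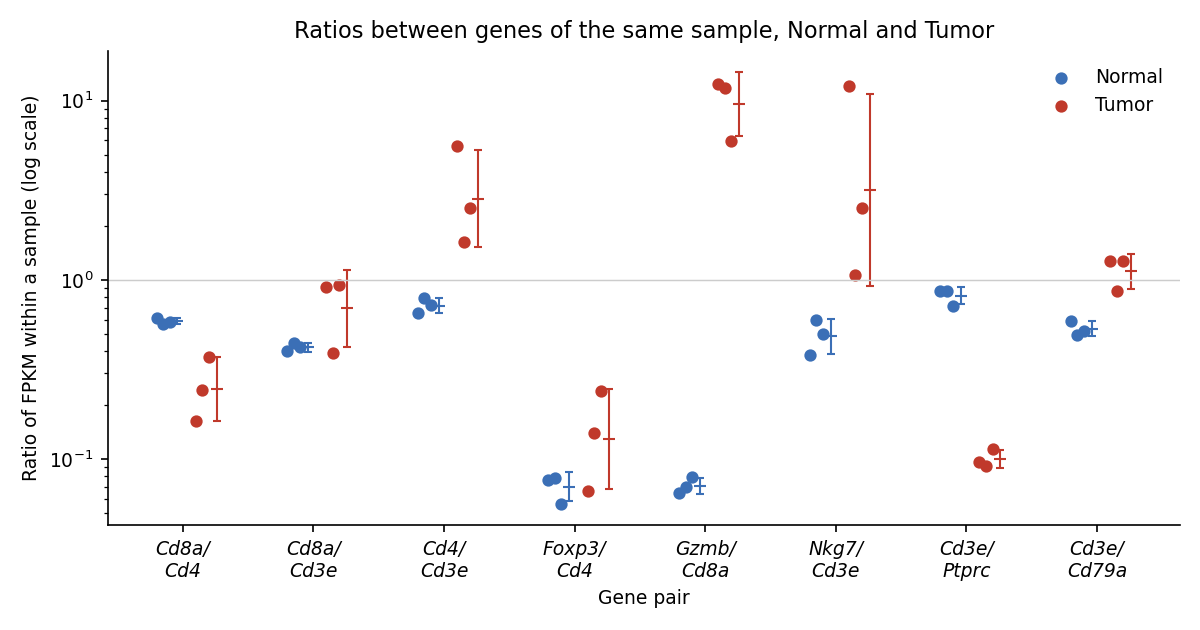
Ratios of FPKM between gene pairs within each sample, on a log axis, for 3 Normal and 3 Tumor samples. Points are samples, and the bars beside them are the mean ± SD of the log2 ratio. Gzmb over Cd8a lies at 0.0645 to 0.0792 in Normal and 5.99 to 12.4 in Tumor, while Cd8a over Cd3e and Foxp3 over Cd4 overlap.

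Other genes of T and NK cells were read from 7 lists with 93 names, of which 85 had a row and 67 passed the filter. Of these, 60 were lower in Tumor and 1 was higher, with a median log2 fold change of -4.72, against -0.02 and 31.7% lower over all genes tested. These counts and medians, and those of the single lists, are descriptions: 43 of the 67 genes reached 1 FPKM in Normal samples only, and of the 24 that also reached it in a Tumor sample, 17 were lower. Without Normal replicate 1, 2 or 3, 16, 15 and 15 genes were called lower, since most then failed the filter. The T cell receptor list had 17 of 17 tested genes lower, with a median of -6.9. They included the adapter Lat (69.6 ± 11.1 FPKM in Normal and 0.284 ± 0.237 in Tumor, SD, n = 3) and Cd6, a costimulatory receptor (19.8 ± 5.31 and 0.0418 ± 0.0111 FPKM). The constant regions of the receptor itself were not analysed here.

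The 10 genes of naive and memory T cells were all lower, with a median of -5.48, and 6 of them reached 1 FPKM in Normal samples only. Among them was the lymph node homing receptor Ccr7, at 54.5 ± 12.4 FPKM in Normal and 0.157 ± 0.0477 FPKM in Tumor (SD, n = 3). Among NK receptor genes 9 of 9 tested were lower, with a median of -4.6. The NK cell receptor Ncr1 was at 2.08, 2.42 and 3.83 FPKM in Normal and at 0.109, 0.131 and 0 FPKM in Tumor. It reached 1 FPKM in Normal samples only, and it fell by 4.93 on the log2 scale.

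In the cytotoxic list 7 of 9 tested genes were lower, with a median of -4.22, and the other two were Gzmc and Xcl1. Prf1, the pore-forming protein that lets granzymes into target cells, was at 3.79, 5 and 3.94 FPKM in Normal and at 0.11, 0 and 0.036 FPKM in Tumor. It reached 1 FPKM in Normal samples only and fell by 5.99 on the log2 scale, while Gzmb did not pass the test. The chemokine Ccl5 was at 196 ± 61.8 FPKM in Normal and 2.36 ± 1.51 FPKM in Tumor (SD, n = 3).

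Of the regulatory and checkpoint genes 11 of 12 tested were lower, with a median of -4.41, and Havcr2 did not pass (log2 fold change -0.66, limma adjusted p = 0.0511). Icos, a costimulator of activated and regulatory T cells, was at 5.57 ± 1.07 FPKM in Normal and 0.0259 ± 0.0246 FPKM in Tumor (SD, n = 3). Of the chemokine axis 5 of 7 were lower, with a median of -3.57, including the receptor Cxcr3 at 5.9 ± 0.638 and 0.292 ± 0.133 FPKM. In the gamma-delta list, where 3 genes were tested, Zbtb16, a transcription factor of innate-like T cells, fell by 2.27 on the log2 scale (SE 0.579, limma adjusted p = 0.0116).

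**Figure D3:**
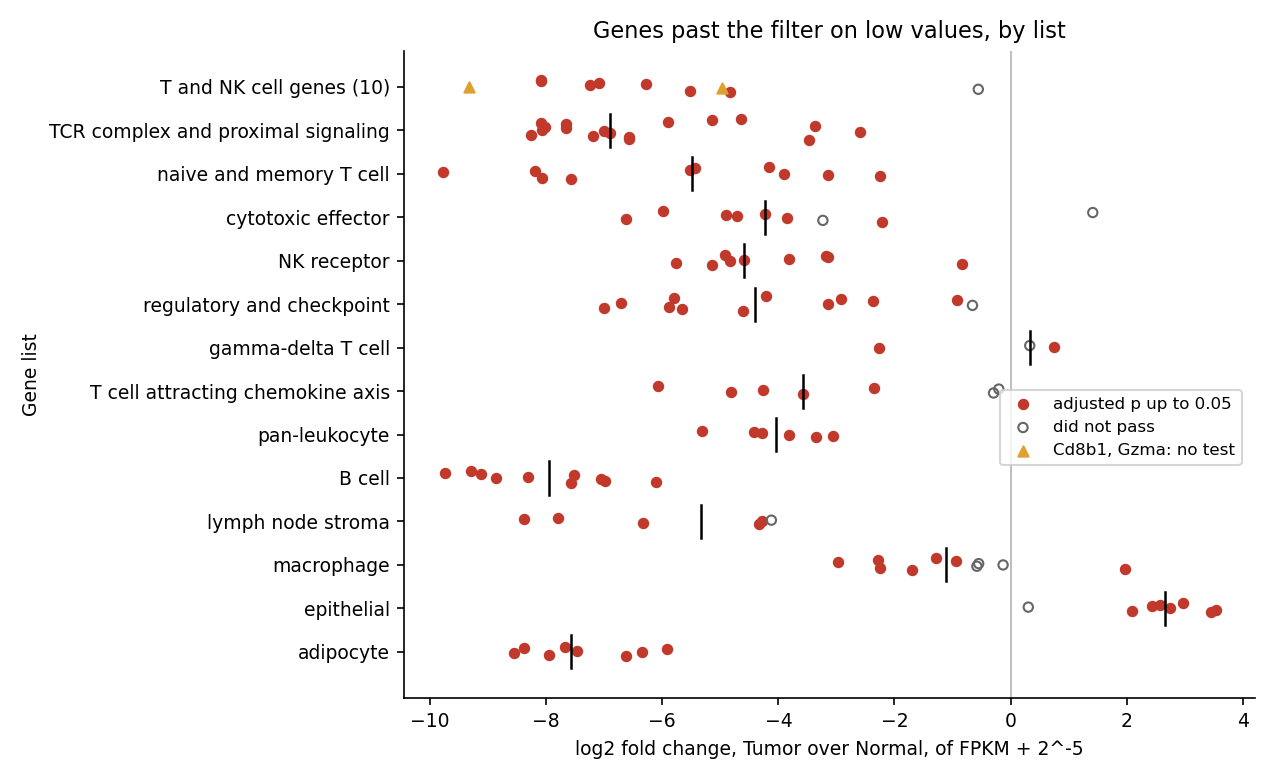
Log2 fold changes of Tumor over Normal, of FPKM plus 2^-5, for genes past the filter. Each point is a gene, filled where the adjusted p was up to 0.05, triangles are Cd8b1 and Gzma, and black bars are list medians. B cell genes lie around a median of -7.94 and epithelial genes around 2.66.

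Markers of some other cells were lower in Tumor too. All 10 B cell markers were lower in Tumor, with a median log2 fold change of -7.94 and a summed level of 310 to 384 FPKM in Normal and 0.631 to 1.45 FPKM in Tumor. Of these markers Ms4a1 and Cr2 were listed at 0 in all Tumor samples, and each of the others was above 0 in some Tumor sample. Of 6 lymph node stroma genes 5 were lower, Ccl19 was listed at 0 in all Tumor samples, and Cxcl13 was at 71.2 ± 6.93 FPKM in Normal and 0.348 ± 0.303 FPKM in Tumor (SD, n = 3). The exception was Glycam1, which is also a milk gene, at 33.4, 2570 and 2.71 FPKM in Tumor. The 10 B cell markers and the 5 lower stroma genes reached 1 FPKM in Normal samples only. Passing the filter already set their groups apart, so these counts and medians are descriptions. Over all genes tested 31.7% were called lower. All 8 adipocyte genes were lower, with summed levels of 26100 to 32900 FPKM in Normal and 2480, 103 and 137 FPKM in Tumor. The part of lymph node tissue, fat and the lower share of non-epithelial cells in the T cell result was not tested.

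Genes of leukocytes at large were read beside them. All 6 pan-leukocyte genes were lower in Tumor, with a median of -4.05 and sums of 1040 to 1560 FPKM in Normal and 74.6 to 110 FPKM in Tumor. Of 10 macrophage genes 6 were lower and 1 was higher, with a median of -1.11. Over all genes tested 31.7% were called lower and 28.8% higher. The complement gene C1qb was at 120 ± 18.6 FPKM in Normal and 114 ± 44.5 FPKM in Tumor (SD, n = 3), a log2 fold change of -0.13 (95% interval -0.78 to 0.52, limma adjusted p = 0.703).

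In the injected tumors the 10 genes were again at low levels. The 30 DMSO values ran from 0 to 2.07 FPKM with 10 listed at 0, and the 30 C646 values ran from 0 to 4.33 FPKM with 3 listed at 0. The summed level was 6.23, 3.75 and 2.39 FPKM in DMSO and 3.96, 10.4 and 5.41 FPKM in C646. By limma none of 12083 genes was called between C646 and DMSO (0% in either direction), and 169 genes were higher and 215 lower at an unadjusted p under 0.05. Of the 8 genes open to testing only Gzmb passed the filter, and it was not called. Without the filter the 8 genes were tested among 17873, and again none was called.

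Cd3g was at 1.29, 1.62 and 0.328 FPKM in DMSO and at 0.646, 0.709 and 0.473 FPKM in C646. The DMSO samples spread over a range that took in all C646 samples, and without the filter the log2 fold change was -0.54 (95% interval -2.1 to 1.01, limma adjusted p = 0.925). Cd3e was listed at 0 in DMSO replicates 1 and 2 and in C646 replicate 1, and it was at 0.114, 0.242 and 0.319 FPKM in the other three samples. Cd3d was at 0.174, 0 and 0.135 FPKM in DMSO and at 0.355, 0.144 and 0.189 FPKM in C646, with overlap.

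Cd4 was at 0.67, 0.852 and 0.236 FPKM in DMSO and at 0.809, 0.603 and 0.731 FPKM in C646. Its log2 fold change without the filter was 0.43 (95% interval -0.94 to 1.8, limma adjusted p = 0.927), an interval that spanned 0. Cd8a was at 0.368, 0.057 and 0.235 FPKM in DMSO and at 0.188, 0.356 and 0.267 FPKM in C646, also with overlap. Cd8b1 was listed at 0 in 5 of the 6 injected tumors and was at 0.115 FPKM in C646 replicate 2. The joined Foxp3 row was at 0.0541, 0.0582 and 0.0485 FPKM in DMSO and at 0.0537, 0.0584 and 0.146 FPKM in C646.

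Gzma was the only one of the 10 genes whose DMSO and C646 samples did not overlap. It was listed at 0 in all 3 DMSO samples and was at 0.246, 3.07 and 0.544 FPKM in C646. It had been chosen for its change, and 3.87% of all gene names above 0 in some sample were likewise higher in every C646 sample than in every DMSO sample, while 3.93% were lower in every one. C646 replicate 2 carried most of the C646 level. With DMSO listed at 0, the size of any fold is set by the pseudocount.

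Gzmb was at 2.07, 1.17 and 1.05 FPKM in DMSO and at 0.699, 4.33 and 1.37 FPKM in C646. C646 replicate 2 was the highest sample and replicate 1 the lowest, so the DMSO range lay inside the C646 range. The log2 fold change was 0.24 (SE 0.682, 95% interval -1.38 to 1.85, limma adjusted p = 0.993), and it was -0.47 without C646 replicate 2. Nkg7 was at 1.59, 0 and 0.245 FPKM in DMSO and at 0.959, 0.786 and 1.38 FPKM in C646, with overlap.

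**Figure D4:**
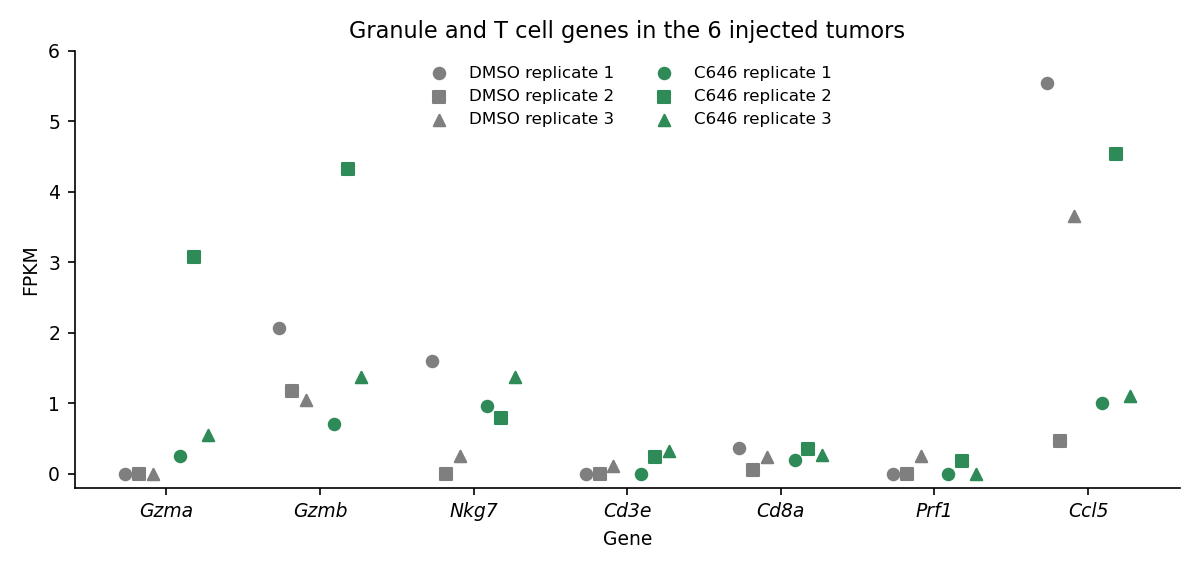
FPKM of granule and T cell genes in the 3 DMSO and 3 C646 tumors, on a linear axis, with 1 symbol per replicate. C646 replicate 2 stands highest for Gzma and Gzmb, at 3.07 and 4.33 FPKM, and lies among the other samples for Nkg7 and Cd8a.

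Of the 10 genes, Gzma, Gzmb, Cd3e, Cd8b1 and the joined Foxp3 row were higher in C646 replicate 2 than in every DMSO tumor. The other 5 lay within the DMSO range. Gzma and Cd8b1 had been chosen for their change, and Cd8b1 was at only 0.115 FPKM. The joined Foxp3 row was at 0.0584 FPKM there, against at most 0.0582 FPKM in DMSO. Counts for this replicate rest on 1 sample and are descriptions. Of 25 cytotoxic effector and NK receptor genes above 0 in an injected tumor, 5 (Ctsw, Cst7, Xcl1, Klrb1c and Il2rb) were above every DMSO tumor in this replicate, 16 lay within the range and 4 below it. Over all gene names above 0 the shares were 17% above and 15.7% below. Prf1 was at 0.175 FPKM there and at 0.258 FPKM in DMSO replicate 3, and it was listed at 0 in the other four tumors. Ccl5 was at 4.53 FPKM there, between 5.54 and 3.66 FPKM in DMSO replicates 1 and 3. Cd8a was at 0.356 FPKM, just under DMSO replicate 1.

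Of the same 85 pathway genes, 22 passed the filter in the injected tumors, none was called, and their median log2 fold change was 0.15, against -0.01 over all genes tested. Among them was Tyrobp, the signal adapter of NK and myeloid receptors, at 45.5 ± 14.7 FPKM in DMSO and 49.7 ± 11.9 FPKM in C646 (SD, n = 3). The T cell surface gene Thy1, which other cells also express, was at 9.16 ± 3.98 FPKM in DMSO and 8.19 ± 1.12 FPKM in C646. Its log2 fold change was -0.09 (95% interval -0.79 to 0.61, limma adjusted p = 0.995). Samples of the groups also overlapped for all 6 pan-leukocyte genes and all 10 macrophage genes.

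Of the ratios, 3 could be computed in every injected tumor, and none differed beyond the spread. Cd8a over Cd4 was 0.548, 0.0669 and 0.994 in DMSO and 0.232, 0.589 and 0.366 in C646 (exact permutation p = 0.9, adjusted 1). Gzmb over Cd8a was 5.64, 20.5 and 4.46 in DMSO and 3.72, 12.2 and 5.11 in C646 (exact permutation p = 0.6, adjusted 1). The joined Foxp3 row over Cd4 was 0.0683 to 0.205 in DMSO and 0.0664 to 0.2 in C646 (exact permutation p = 1, adjusted 1). Among other cells, 7 of 8 adipocyte markers were higher in every C646 tumor than in every DMSO tumor. This held for 3.87% of all gene names above 0 in some sample. Limma called none of these markers, and their sums were 11.6 to 71.7 FPKM in DMSO and 93.4 to 606 FPKM in C646. B cell markers summed to 0.918 to 1.44 FPKM in DMSO and 0.399 to 0.836 FPKM in C646. The part of fat tissue in the granzyme values was not tested.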

How the data were processed

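RNA sequencing was analysed in 12 samples of 4 groups, taken with their replicate numbers from the sample titles. The authors trimmed paired-end reads (cutadapt), aligned them to mm10 (TopHat2 2.1.1) and deposited FPKM per gene from Cufflinks 2.2.1, a unit scaled for gene length and sequencing depth. A gene with few reads therefore has coarse steps and large error. Total reads per sample are not in the tables.

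From these values, FPKM was summed over rows of the same name, and a gene without a row of its own took a joined row that lists its name. Differences were tested in R 4.3.3 with limma 3.58.1 (eBayes with a variance trend, two-sided) on log2(FPKM + 2^-5). A gene was tested where 3 or more of the 6 samples reached 1 FPKM. Adjustment was by Benjamini-Hochberg over all tested genes, with 0.05 as the threshold. A fold change on this scale understates that of low genes. Each experiment was fitted alone. The fit was tested on data simulated with normal noise on the log scale around the real means. That does not copy values listed at 0 or coarse steps, so it does not cover genes near 0. Ratios, fixed with the lists, were compared with exact permutation tests in scipy 1.17.1. Positions are from GENCODE M21 and promoters from RefSeq.

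The genes and lists were chosen with earlier results of these data known. Named genes were all 10, up to 4 called genes with the largest fold change per T and NK cell list (or the 2 most abundant where none was called), of which a part is printed and some are not reported here, and up to 3 of the most abundant per list of other cells. Ms4a1, Cr2, Gzmc, Xcl1 and Havcr2, and Prf1, Ctsw, Cst7 and Klrb1c in the injected tumors, were named after their values were seen. The p-values measure the spread between 3 samples. Alternatives were other pseudocounts, filters, scalings, no variance trend, a replicate block and leaving out each sample.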

Additional observations from a re-analysis of the deposited data

How the results depend on the processing

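Between Normal and Tumor, 7 tested genes were lower under every other pseudocount, filter and scaling and without a variance trend. Leaving out each sample in turn gave 2 to 7, and 15 to 61 of the T and NK cell list genes in place of 60. The low counts came when any Normal replicate was left out, because genes at 1 FPKM or more only in Normal then fail the filter. With the 6-sample filter kept, an alternative added after seeing the data, the counts were 7 throughout and 58 to 61. The list genes called higher numbered 1, and 2 under a pseudocount of 1 or 2^-2, no filter, median-ratio scaling, quantile normalization and no variance trend, and the range without each sample was 1 to 2. The log2 fold change of Gzmb between Normal and Tumor was 0.15 with quantile normalization, which moved the median of all genes from -0.02 to 0.10.

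Between DMSO and C646, Gzmb was at -0.47 on the log2 scale without C646 replicate 2, with either filter, and the range without each sample was -0.47 to 0.82. Without each sample in turn the log2 difference of Cd8a over Cd4 ran from -1.002 to 0.94 (the lowest without DMSO replicate 2 and -0.19 without C646 replicate 2). That of Foxp3 over Cd4 ran from -0.38 to 0.55 (-0.12 and -0.24 without DMSO replicates 1 and 2, -0.38 without C646 replicate 3), and that of Gzmb over Cd8a from -0.88 to 0.29 (0.29 without DMSO replicate 2). The cause was not tested.

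The sizes given for genes near 0 depend on the pseudocount: the log2 fold change of Cd8b1 in Tumor ran from -9.33 to -5.04, and that of Gzma in C646 from 0.99 to 4.66. With a replicate block 7 tested genes were again lower in Tumor, and over all genes 3827 were lower and 3439 higher, against 4128 and 3758 without it. The block changed no call of the 8 genes in either experiment. Samples of the same number deviated together with correlations of -0.04, -0.10 and 0.01 in the first experiment and 0.17, 0.07 and 0.11 in the second, so the numbers were not taken as pairs. Low depth limits all genes under 1 FPKM.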

Other observations

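Other granzyme genes, which lie outside the 10 genes, were looked at after their values were seen. Gzmd, Gzme, Gzmf and Gzmg were listed at 0 in all 3 Normal samples. Gzmd was at 0.17, 0.316 and 0.111 FPKM in Tumor, at 0.945, 0 and 1.8 FPKM in DMSO and at 0, 0.389 and 0.517 FPKM in C646. Gzme was at 0, 0.316 and 0.33 FPKM in Tumor, at 0.475, 0.223 and 1.26 FPKM in DMSO and was listed at 0 in all 3 C646 samples. Gzmc was at 0.268, 1.05 and 0.341 FPKM in Normal and at 1.23, 1.08 and 1.59 FPKM in Tumor, a log2 fold change of 1.42 that did not pass the test (SE 0.531, limma adjusted p = 0.0513). These genes are similar members of one family, so the split of reads among them is uncertain. Over all gene names above 0 in some sample, 25.8% were higher in every Tumor than in every Normal sample.

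Also seen only after the values were known, the chemokine receptor Ccr2, found on monocytes and some T cells, was at 0.249, 0.427 and 0.363 FPKM in DMSO and at 0.429, 0.995 and 1.37 FPKM in C646, with no overlap. The T cell attracting chemokine Cxcl10 was at 2.04, 0.189 and 1.56 FPKM in DMSO and at 0, 0.167 and 0 FPKM in C646, also with no overlap. Neither passed the filter on low values. Without the filter both were among the 17873 genes tested, and limma called none of them. Of 85 pathway genes with a row, 4 were higher and 5 lower in every C646 than in every DMSO sample, and over all gene names above 0 in some sample the shares were 3.87% and 3.93%.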
